A study of Mus musculus with 10 samples.

Results

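Wnt ligands, Frizzled receptors and their modulators were taken as all mouse protein-coding genes whose symbol is Wnt or Fzd with a number, Rspo, Sfrp or Dkk with its number, or one of Lrp5, Lrp6, Lgr4, Lgr5, Wif1, Ror1, Ror2 and Ryk. This rule gave 49 genes of the 29972 in the tables, and 25 of them were among the 14765 genes tested. They comprised 19 ligands, 10 Frizzled receptors, 5 other receptors, 4 R-spondins, 2 R-spondin receptors and 9 secreted inhibitors. RNA-seq was made from hepatocyte-derived peripheral cholangiocytes (HpC, 4 libraries), peripheral cholangiocytes (pC, 3 libraries) and hepatocytes (H, 3 libraries), sorted by flow cytometry from livers of mice of mixed C57BL/6, FVB and CD1 background. HpC came from mice of postnatal days P124, P151, P144 and P139 that carried an Alb-Cre transgene and floxed Rbpj and Hnf6 on both alleles. The pC mice, of P151, P119 and P142, carried the same floxed alleles without Cre. The H mice, of P134, P139 and P139, had the genotype of the HpC mice, so the pC mice alone lacked Cre. Rbpj is the DNA-binding effector of Notch signalling and Hnf6 (Onecut1) a transcription factor of bile duct development. Cre was driven by the albumin promoter, which is active in hepatocytes. The labels do not state how the sort gates were set. Nor do they state whether H2 and H3, which share an age with each other and with HpC4, came from separate animals. If they did not, part of the spread within H is technical. All comparisons share the estimate of spread per gene, so p-values of every comparison, also HpC against pC, may then be too low.

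Wnt ligands are secreted, lipid-bearing proteins that bind Frizzled receptors together with the coreceptors LRP5 and LRP6, after which beta-catenin is spared from destruction and enters the nucleus. The ROR and RYK proteins are further Wnt receptors, and R-spondins act through LGR receptors to keep Frizzled at the cell surface by removing the ligases ZNRF3 and RNF43. Secreted inhibitors of the SFRP and WIF families bind the ligands, and several proteins of the Dickkopf family bind the coreceptors. In the liver, Wnt and R-spondin signals from endothelial and other nonparenchymal cells are known to set the gene programme of hepatocytes around the central vein.

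Values are TPM, transcript abundances per unit of length scaled to a fixed total per library, summed over the transcripts of a gene and rescaled between libraries (scaled TPM), so levels may be compared between genes. The number of reads behind a value is unknown. The 8 cholangiocyte markers summed to 1793 to 2817 scaled TPM in HpC, 5533 to 5734 in pC and 53.3 to 74.3 in H. Spp1 made the gap between HpC and pC (593 to 1289 in HpC, 4056 to 4410 in pC), and without it the sums overlapped, at 936 to 1816 in HpC, 1324 to 1477 in pC and 38.5 to 54.4 in H. The 8 hepatocyte markers summed to 2933 to 5557 in HpC, 986 to 2552 in pC and 75561 to 87028 in H, and no marker of either list was at 0 in any library. Rbpj stood at 4.09 to 6.24 scaled TPM in HpC, 5.51 to 6.82 in pC and 1.20 to 1.59 in H, and Onecut1 at 19.3 to 46.3 in HpC, 63.0 to 81.9 in pC and 46.0 to 109 in H. These are whole-gene sums, which do not check a deletion of part of a gene. HpC1 and HpC2 stood apart, the first with pancreatic acinar markers summing to 171143 scaled TPM (5.87 to 744 in the other libraries) and the second with stratified squamous markers summing to 38191 (2.57 to 12.5 in the others). Markers of liver endothelium summed to 5.56 to 14.9 scaled TPM in HpC, 7.28 to 9.93 in pC and 0.781 to 1.67 in H. Those of stellate cells and fibroblasts summed to 34.1 to 109 in HpC, 54.1 to 66.8 in pC and 2.35 to 3.62 in H, and those of Kupffer cells and leukocytes to 3.20 to 12.1 in HpC, 4.42 to 12.9 in pC and 0.489 to 0.732 in H.

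The ligand repertoire was narrow. Of the 19 ligand genes, 8 reached 1 deposited TPM in at least 3 libraries and were tested. The other 11 were Wnt16, which was above 1 scaled TPM in HpC2 alone, and 10 genes (Wnt1, Wnt2, Wnt2b, Wnt3, Wnt3a, Wnt6, Wnt8a, Wnt8b, Wnt9b and Wnt10b) that stayed under 1 scaled TPM in every library. Wnt4, Wnt5a, Wnt7b and Wnt10a held the higher levels in the HpC libraries, Wnt4, Wnt5a and Wnt7b in the pC libraries, and Wnt5b in hepatocytes. Summed over all 19 genes, ligand transcripts reached 25.5, 54.1, 45.4 and 43.2 scaled TPM across HpC1 to HpC4 (42.1 ± 12.0, SD, n = 4). The same sum was 17.6, 15.7 and 20.8 in pC1 to pC3 (18 ± 2.61, n = 3) and 5.08, 8.05 and 5.57 in H1 to H3 (6.23 ± 1.59, n = 3). Every HpC library lay above every pC library and every pC library above every H library, and the ratio of the HpC mean to the pC mean was 2.33. This order rests on the rescaling, since on TPM as deposited the sums were 17.0, 62.3, 65.7 and 69.7 in HpC1 to HpC4, 26.9, 24.5 and 33.0 in pC1 to pC3 and 2.97, 4.02 and 2.80 in H1 to H3, with HpC1 below every pC library. With protein-coding transcripts alone the sums were 23.0, 48.5, 40.5 and 31.2 in HpC1 to HpC4, 15.4, 13.2 and 19.7 in pC1 to pC3 and 5.02, 6.66 and 3.24 in H1 to H3, in the same order of groups. In bulk samples such as these, fewer cells of a type and less RNA per cell cannot be told apart.

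**Figure D1:**
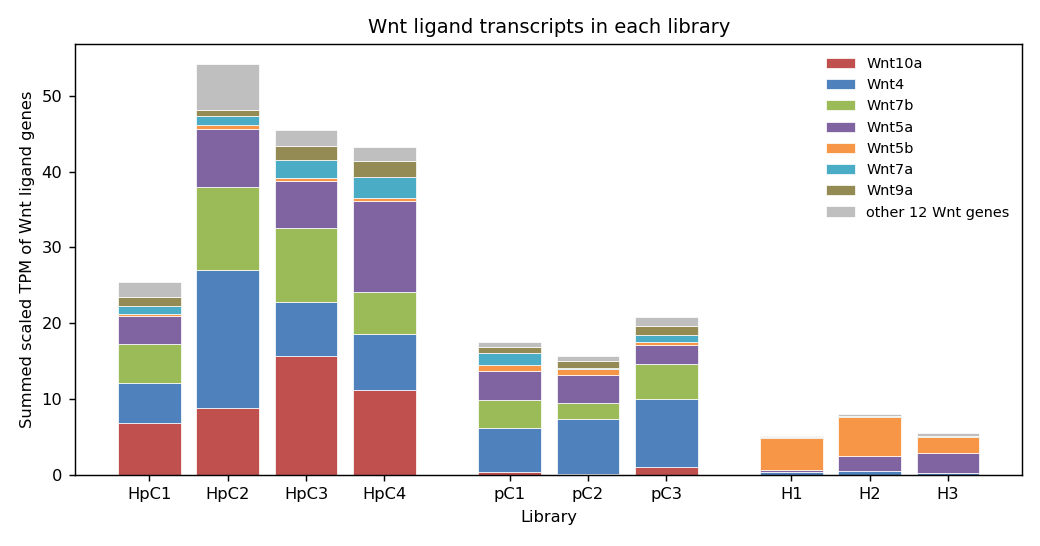
Summed scaled TPM of the 19 Wnt ligand genes in each library (vertical axis), with a colour per gene and libraries along the horizontal axis. The HpC bars reach 25.5 to 54.1 and hold a Wnt10a segment that is thin or missing in pC (15.7 to 20.8) and H (5.08 to 8.05), where Wnt5b leads in H1 and H2.

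The makeup of the ligand pool also differed, and the sums themselves were not tested. Of the 8 tested ligands, Wnt10a alone passed between HpC and pC. It held 6.84 of the 25.5 scaled TPM in HpC1 and at most 1.05 in pC. Without Wnt10a the sum of HpC1 fell within the range of the pC libraries. Wnt10a made up 26.9%, 16.4%, 34.5% and 26.0% of the ligand sum in HpC1 to HpC4, against 1.77%, 0.583% and 5.03% in pC1 to pC3. Wnt4, a ligand best known from kidney and reproductive tract development, made up 15.6% to 33.4% in HpC and 33.7% to 46.8% in pC, the highest HpC share lying just under the lowest pC share. In hepatocytes Wnt5b, a relative of Wnt5a that is mostly described in signalling without beta-catenin, made up 83.5%, 63.9% and 37.4% in H1 to H3. Shares of a sum depend on one another, and no test was made on them.

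The comparison of HpC with pC sets cholangiocytes derived from hepatocytes beside ordinary ones. The HpC mice carried Cre and the pC mice did not. Cell origin, Cre itself and any loss of the floxed genes therefore cannot be told apart here. Among the 25 tested genes, Wnt10a and Dkk3 were higher in HpC, and Sfrp5, Fzd9 and Fzd7 were lower (limma, Benjamini-Hochberg adjusted p under 0.05 over all genes). The other 20 did not pass. These 5 of 25 genes are 20.0% of the tested members, and 4.54% of all tested genes passed in this comparison (1.99% higher and 2.55% lower). Sfrp5 and Fzd9 entered the test through pC alone, where they are high. Wnt10a reached 1 deposited TPM in 4 HpC libraries and 1 pC library. The share of 20.0% includes these members and so is not read as a result about the set. The median log2 fold change was 0.10 over the 25 genes and -0.01 over all tested genes. Without HpC1 and HpC2, 6 of the 25 passed, 3 higher and 3 lower, among them the same 5 genes in the same direction. On TPM as deposited the median of all tested genes moved to -0.36, 26.1% of all calls were higher in HpC (43.8% after rescaling), and 3 of the 25 passed, Dkk3 and Fzd7 being lost.

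**Figure D2:**
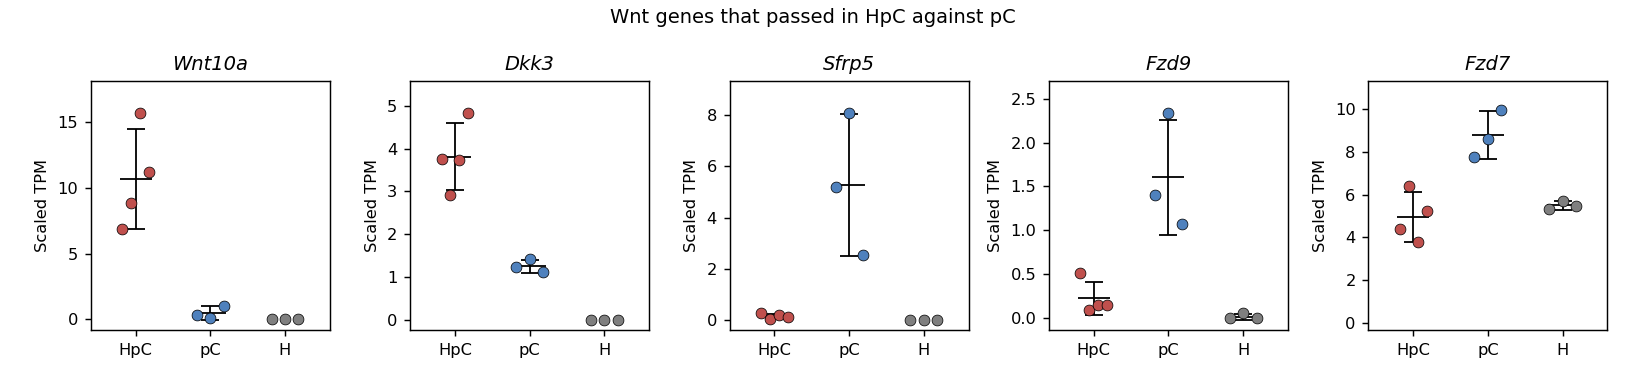
Scaled TPM (vertical axes, linear, each with its own range) of the 5 Wnt genes that passed in HpC against pC, by group. Points are libraries and bars the mean and SD, drawn where a group is not listed at 0 throughout. In each panel the HpC and pC points do not overlap, with Wnt10a at 6.84 to 15.7 in HpC and 0.0914 to 1.05 in pC.

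Wnt10a encodes a ligand of the beta-catenin branch known from tooth, hair and skin development (ENSMUSG00000026167, mm10 chr1:74791516-74804179, plus strand). It stood at 6.84, 8.85, 15.7 and 11.2 scaled TPM across HpC1 to HpC4, against 0.310, 0.0914 and 1.05 in pC1 to pC3, and was listed at 0 in H1, H2 and H3. All HpC libraries were high, with HpC3 highest, and the lowest of them exceeded the highest pC library several times over. The means were 10.6 ± 3.81 (SD, n = 4) in HpC and 0.483 ± 0.501 (n = 3) in pC, a ratio of 22.0. The log2 fold change was 2.97 ± 0.28 (SE) on the log2(scaled TPM + 1) scale (limma adjusted p = 0.000625), and it passed under all 20 alternatives. Its neighbour Wnt6, which lies 6193 bases before it on the same strand with no protein-coding gene between, was at 0 to 0.123 scaled TPM in HpC, 0 to 0.0245 in pC and 0 in every H library.

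Dkk3 encodes a divergent member of the Dickkopf family of secreted proteins (ENSMUSG00000030772, mm10 chr7:112116017-112159057, minus strand). The gene is grouped with the secreted inhibitors by its symbol, and an effect on Wnt signalling was not tested. Its values were 3.76, 2.91, 3.74 and 4.83 scaled TPM across HpC1 to HpC4, against 1.22, 1.42 and 1.12 in pC1 to pC3, and it was listed at 0 in H1, H2 and H3. The lowest HpC library was above the highest pC library, and the spread within each group was small. The means, 3.81 ± 0.787 (SD, n = 4) in HpC and 1.25 ± 0.154 (n = 3) in pC, stood in a ratio of 3.05, with a log2 fold change of 1.08 ± 0.17 (SE; limma adjusted p = 0.00548). On TPM as deposited, without rescaling, the fold change was 0.88 and did not pass (limma adjusted p = 0.155, with a range of 0.000772 to 0.155 over the alternatives).

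Sfrp5, whose product is a secreted Frizzled-related protein that binds Wnt ligands, was the member with the lowest HpC level relative to pC on the log2 scale (mm10 chr19:42197971-42202252, minus strand). It stood at 0.243, 0.0302, 0.180 and 0.0819 scaled TPM across HpC1 to HpC4, against 5.19, 8.09 and 2.53 in pC1 to pC3, and was listed at 0 in all H libraries. None of the HpC libraries reached 1 scaled TPM, whereas the pC libraries were all above it, with pC2 the highest. The means were 0.134 ± 0.0956 (SD, n = 4) in HpC and 5.27 ± 2.78 (n = 3) in pC, and the log2 fold change of -2.37 ± 0.28 (SE; limma adjusted p = 0.00149) passed under all 20 alternatives. Sfrp5 entered the test only through pC, where it is high.

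Fzd9, a Frizzled receptor known from the nervous system and bone, was also high enough to be tested only through pC (mm10 chr5:135248938-135251230, minus strand). It stood at 0.513, 0.0981, 0.146 and 0.150 scaled TPM across HpC1 to HpC4, against 1.40, 2.34 and 1.07 in pC1 to pC3 and 0, 0.0596 and 0 in H1 to H3. The HpC libraries lay below the pC libraries without overlap, HpC1 being the nearest to them. The log2 fold change of -1.07 ± 0.20 (SE) passed (limma adjusted p = 0.0165). The call was lost without HpC3 (limma adjusted p = 0.0505), pC1 (0.0523) or pC2 (0.0762) and with only the 2 groups fitted (0.0539), within a range of 0.00213 to 0.0762 over the alternatives.

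Fzd7, a widely expressed Frizzled receptor (mm10 chr1:59482424-59486955, plus strand), stood at 4.40, 6.42, 3.77 and 5.22 scaled TPM across HpC1 to HpC4. It was at 7.76, 8.59 and 9.95 in pC1 to pC3 and at 5.31, 5.72 and 5.45 in H1 to H3. The pC libraries were the high ones, above every HpC and every H library, and the HpC and H ranges overlapped. The log2 fold change between HpC and pC was -0.73 ± 0.17 (SE; limma adjusted p = 0.0428), near the threshold. Leaving out any single library other than HpC2 ended the call, as did TPM as deposited, a pseudocount of 0.1, no filter and a fit of only the 2 groups, with limma adjusted p-values over the alternatives of 0.00360 to 0.145.

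The promoters of Sfrp5 and Fzd7 are shown because these members were lower in HpC, and that of Lgr6 because this R-spondin receptor had the widest difference among the further Wnt pathway genes. Each run is the 250 bases before the RefSeq start (GRCm38.p6, strand of the gene, 5′ to 3′), and capitals mark a match to a searched motif. Sfrp5 is chr19:42202253-42202502 on the minus strand, Fzd7 chr1:59481897-59482146 on the plus strand and Lgr6 chr1:135105277-135105526 on the minus strand.
Sfrp5: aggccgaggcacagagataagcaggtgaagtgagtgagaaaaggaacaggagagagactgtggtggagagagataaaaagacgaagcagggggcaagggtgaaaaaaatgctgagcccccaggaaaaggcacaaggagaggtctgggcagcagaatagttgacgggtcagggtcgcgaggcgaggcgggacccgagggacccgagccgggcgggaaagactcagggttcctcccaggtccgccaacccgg
Fzd7: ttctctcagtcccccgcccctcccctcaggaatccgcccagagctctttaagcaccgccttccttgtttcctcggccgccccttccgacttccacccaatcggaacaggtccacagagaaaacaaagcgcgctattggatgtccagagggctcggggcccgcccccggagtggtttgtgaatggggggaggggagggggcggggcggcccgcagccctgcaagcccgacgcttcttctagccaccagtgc
Lgr6: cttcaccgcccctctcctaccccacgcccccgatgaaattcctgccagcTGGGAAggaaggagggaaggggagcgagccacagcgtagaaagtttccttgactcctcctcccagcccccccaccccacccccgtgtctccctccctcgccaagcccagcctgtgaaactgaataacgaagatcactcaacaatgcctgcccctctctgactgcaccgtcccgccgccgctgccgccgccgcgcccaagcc
The motifs searched on both strands were the RBPJ core TGGGAA, the TCF/LEF core CTTTGA and the HNF6 core ATCAAT, which belong to the floxed factors RBPJ and HNF6 and to the nuclear partners of beta-catenin. Sfrp5 and Fzd7 held none of the 3 motifs in the window. Lgr6 held the RBPJ core once, on the plus orientation of the printed run, with its first base at -201. Of 32851 RefSeq promoters of the same length, 21.6% held the RBPJ core, 13.8% the TCF/LEF core and 6.72% the HNF6 core. Of the 35 promoters found for 32 of the 49 genes, 3 held the RBPJ core, 5 the TCF/LEF core and 1 the HNF6 core. The GC content was 59.6% for Sfrp5, 65.2% for Fzd7 and 65.2% for Lgr6, with 13, 17 and 16 CG pairs in that order, and the medians over all promoters were 52.4% and 6 pairs. Wnt10a, Dkk3 and Fzd9, which also passed in HpC against pC, have no printed promoter. Windows within which an annotated transcript begins were left out of the printed runs.

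Some mesothelial markers moved with the genes that were higher in HpC. The sum of the 7 was 33.5, 463, 49.4 and 54.8 scaled TPM across HpC1 to HpC4, against 24.4 to 31.4 in pC and 0.643 to 1.49 in H, and 3 of them (Msln, Upk1b and Wt1) were higher in HpC than in pC while Gpm6a was lower. In HpC2 Krt14, a keratin that squamous epithelium also makes, gave 428 of the 463, and the other 6 summed to 33.1, 34.9, 49.3 and 54.6 in HpC1 to HpC4, against 24.3 to 30.9 in pC and 0.643 to 1.40 in H. Of the 9 stellate and fibroblast markers Col3a1 was higher, and of the 8 endothelial markers none passed. No marker of these 3 lists was at 0 in any HpC or pC library. The part of other cell types in the Wnt10a and Dkk3 results was not tested.

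The remaining ligands did not pass between HpC and pC. Wnt7b, a beta-catenin ligand of lung and kidney epithelium (mm10 chr15:85535437-85582473, minus strand), came nearest in size, at 5.12, 11.1, 9.77 and 5.58 scaled TPM across HpC1 to HpC4, against 3.61, 2.10 and 4.62 in pC1 to pC3, and it was listed at 0 in all H libraries. The HpC libraries were all above the pC libraries. The log2 fold change of 0.98 ± 0.28 (SE) had a limma adjusted p of 0.0908, and it passed only with library weights (1.28, limma adjusted p = 0.00842, in a range of 0.00842 to 0.351). Wnt4 stood at 5.33, 18.1, 7.10 and 7.37 scaled TPM across HpC1 to HpC4, against 5.93, 7.33 and 8.96 in pC1 to pC3. The groups overlapped apart from HpC2, and the difference was 0.19 ± 0.33 (limma adjusted p = 0.805). Wnt11, a ligand of the planar polarity branch that was tested only through HpC, had 0.569, 0.924, 0.833 and 0.728 scaled TPM across HpC1 to HpC4, against 0.304, 0.191 and 0 in pC1 to pC3, and was listed at 0 in all H libraries. Its difference of 0.60 ± 0.16 did not pass (limma adjusted p = 0.0726), although the groups did not overlap, and it passed with no filter (adjusted p = 0.0193) and with library weights (adjusted p = 0.0199). The protein-coding transcripts of Wnt11 stood at 0.569, 0.427, 0.221 and 0.102 in HpC1 to HpC4, against 0.304, 0.0272 and 0 in pC1 to pC3, and these groups overlapped.

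Wnt5a, the main ligand of the branch without beta-catenin, was at 3.66, 7.65, 6.23 and 12.0 scaled TPM across HpC1 to HpC4, against 3.90, 3.68 and 2.44 in pC1 to pC3. The groups overlapped through HpC1, and the log2 fold change of 0.87 ± 0.41 (SE) did not pass (limma adjusted p = 0.312). In HpC4 a non-coding transcript, Wnt5a-205, accounted for 7.16 of the 12.0. The protein-coding transcripts of Wnt5a summed to 1.16, 2.56, 1.94 and 1.66 in HpC1 to HpC4, against 2.43, 1.34 and 1.31 in pC1 to pC3, ranges that overlapped more closely. Wnt7a had 1.0, 1.17, 2.25 and 2.73 scaled TPM across HpC1 to HpC4, against 1.62, 0.237 and 0.877 in pC1 to pC3, and was listed at 0 in all H libraries (0.56 ± 0.29, limma adjusted p = 0.364). Wnt9a stood at 1.24, 0.823, 1.90 and 2.22 in HpC1 to HpC4, against 0.850, 0.877 and 1.23 in pC1 to pC3 (0.33 ± 0.21, limma adjusted p = 0.467). Both genes had overlapping groups.

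The Frizzled receptors summed to 36.2, 51.3, 48.3 and 50.8 scaled TPM across HpC1 to HpC4, against 50.2, 48.4 and 51.1 in pC1 to pC3 and 20.0, 26.7 and 22.6 in H1 to H3. The 2 cholangiocyte groups thus overlapped in total Frizzled RNA and both lay above H. Fzd5, a receptor for Wnt5a and beta-catenin ligands that is needed in endoderm-derived epithelia, led both groups with 11, 10.4, 16.8 and 19.5 in HpC1 to HpC4 and 13.1, 14.4 and 14.8 in pC1 to pC3, and stood at 1.28, 1.26 and 1.11 in H1 to H3. Its HpC and pC ranges overlapped (-0.01 ± 0.21, limma adjusted p = 0.984). After Fzd5 the order of mean levels in HpC was Fzd6, Fzd1, Fzd3, Fzd7 and Fzd4, at 6.20 to 4.31, neighbours whose ranges overlapped, and HpC2 brought Fzd6 into the range of Fzd5. In pC the order was Fzd7, Fzd4, Fzd1, Fzd3 and Fzd6, from 8.77 to 4.27, and there Fzd7 lay above Fzd4 without overlap while the next ones overlapped. In H the leaders were Fzd4 (7.77 ± 2.04, SD, n = 3), Fzd7 (5.49 ± 0.207), Fzd8 (4.93 ± 0.897) and Fzd1 (3.13 ± 0.894). There Fzd4 lay just above Fzd7 and Fzd8 just above Fzd1 without overlap, and Fzd7 and Fzd8 overlapped.

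**Figure D3:**
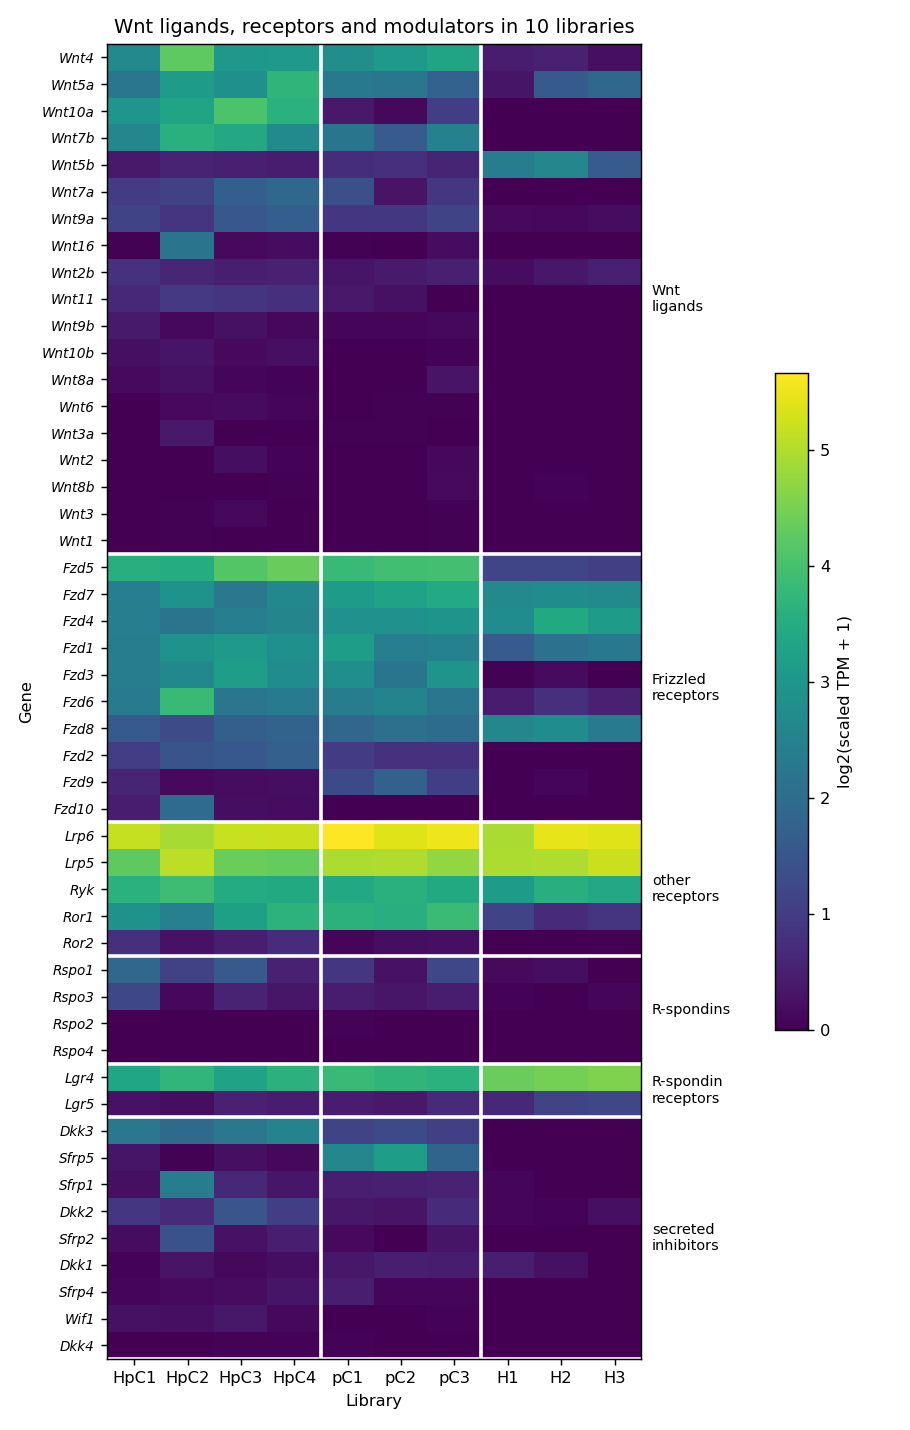
Level of each of the 49 genes (rows, grouped by role) in each library (columns, white lines between HpC, pC and H), as log2(scaled TPM + 1). Lrp5, Lrp6, Ryk and Lgr4 are bright in all libraries, Wnt10a and Dkk3 are brightest in the HpC columns, Sfrp5 in the pC columns, and HpC2 alone is bright for Wnt16, Fzd10, Sfrp1 and Sfrp2.

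Fzd2, a receptor often described with Wnt5a, stood at 1.04, 1.77, 1.93 and 2.35 scaled TPM across HpC1 to HpC4, against 1.0, 0.762 and 0.760 in pC1 to pC3, and was listed at 0 in all H libraries. The HpC values were all above the pC values, the margin between HpC1 and pC1 being slight. The difference of 0.57 ± 0.19 (SE) did not pass (limma adjusted p = 0.139), but it did without HpC1 (0.71, adjusted p = 0.0438), without HpC1 and HpC2 (0.77, adjusted p = 0.0398) and with library weights (0.65, adjusted p = 0.0187), in a range of 0.0187 to 0.442. Fzd1, Fzd3, Fzd4, Fzd6 and Fzd8 did not pass either, with log2 fold changes of 0.10, 0.09, -0.48, 0.28 and -0.37 in that order. Among them Fzd4, the receptor for norrin as well as Wnt, had non-overlapping groups, at 4.38, 3.51, 4.35 and 5.0 in HpC1 to HpC4, against 6.24, 6.23 and 6.64 in pC1 to pC3 (limma adjusted p = 0.194). Fzd10 was listed at 0 in all pC and H libraries and was not tested.

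The coreceptors Lrp5 and Lrp6 were the members with the highest levels. Lrp6 stood at 34.9, 29.4, 35.5 and 36.1 scaled TPM across HpC1 to HpC4, against 49.7, 40.7 and 44.9 in pC1 to pC3 and 29.8, 42.6 and 40.7 in H1 to H3. All HpC libraries were below all pC libraries, yet the difference of -0.40 ± 0.16 (SE) did not pass (limma adjusted p = 0.225). Lrp5 stood at 18.2, 33.1, 20.0 and 19.1 in HpC1 to HpC4, against 30.4, 30.7 and 25.8 in pC1 to pC3. HpC2 was above the pC libraries and the other HpC libraries below them. Its difference of -0.38 ± 0.21 did not pass (limma adjusted p = 0.375), and without HpC2 it passed at -0.57 (limma adjusted p = 0.0448, in a range of 0.0355 to 0.640).

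Ror1, a receptor tyrosine kinase-like protein that binds Wnt5a, stood at 6.5, 4.51, 8.25 and 11.7 scaled TPM across HpC1 to HpC4, against 11.4, 10.7 and 13.4 in pC1 to pC3 and 1.25, 0.628 and 0.840 in H1 to H3. HpC4 fell within the pC range and the other HpC libraries below it, and the difference of -0.62 ± 0.26 (SE) did not pass (limma adjusted p = 0.249). Ryk, a catalytically inactive kinase-like Wnt receptor, ranged over 9.90 to 14.1 in HpC, 9.80 to 11.1 in pC and 7.67 to 10.8 in H, and passed in none of the 3 comparisons after rescaling. Ror2 stayed under 1 scaled TPM in every library and was listed at 0 in all H libraries.

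R-spondin transcripts were low in all groups, whereas those of their receptor Lgr4 were not. Rspo1 was the single R-spondin tested, at 2.67, 1.16, 2.02 and 0.423 scaled TPM across HpC1 to HpC4, against 0.862, 0.203 and 1.30 in pC1 to pC3 and 0.10, 0.153 and 0 in H1 to H3, with overlapping HpC and pC groups (0.49 ± 0.33 SE, limma adjusted p = 0.491). Rspo3, the R-spondin best known from the central vein, reached 1.35 in HpC1 and was at 0.0936 to 0.489 in the other HpC libraries, 0.265 to 0.375 in pC and 0 to 0.0519 in H. Rspo2 was above 0 in 1 library alone, at 0.0398 in pC1, and Rspo4 was listed at 0 in all 10. Lgr4 stood at 9.08, 12.2, 8.66 and 11.4 in HpC1 to HpC4 and 13.1, 12.0 and 11.4 in pC1 to pC3 (-0.22 ± 0.15 SE, limma adjusted p = 0.491). Lgr5, a Wnt target of pericentral hepatocytes that was not tested, was at 0.162 to 0.425 in HpC, 0.305 to 0.597 in pC and 0.574, 1.23 and 1.31 in H1 to H3.

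Secreted inhibitors other than Dkk3 and Sfrp5 did not reach the level required for testing. Dkk2, an inhibitor that binds LRP5 and LRP6, was at 0.862, 0.617, 1.82 and 1.08 scaled TPM across HpC1 to HpC4, against 0.288, 0.223 and 0.593 in pC1 to pC3 and at most 0.172 in H. Its HpC values were above its pC values without overlap. Dkk1 was at 0.0463 to 0.233 in HpC, 0.284 to 0.396 in pC and 0 to 0.392 in H. Wif1 reached 0.293, Sfrp4 0.399 and Dkk4 0.0375 in their highest libraries. Summed over the 9 genes, inhibitor RNA stood at 5.48 to 9.96 scaled TPM in HpC, 5.42 to 10.6 in pC and 0.172 to 0.508 in H, so HpC and pC overlapped in total.

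HpC2 stood apart from the other HpC libraries in several members. It held Wnt16 at 3.56 scaled TPM (0.0278 to 0.142 in the other HpC libraries), Fzd10 at 2.97 (0.137 to 0.355), Sfrp1 at 4.22 (0.178 to 0.554), Sfrp2 at 1.68 (0.137 to 0.381) and Fzd6 at 13.1 (3.67 to 4.05). With protein-coding transcripts alone Sfrp2 was at 0.220 in HpC2, against 0.0645 to 0.137 in the other HpC libraries. The stratified squamous markers of HpC2 summed to 38191 scaled TPM, against 4.19 to 6.83 in the other HpC libraries. The part of squamous transcripts in the values of HpC2 was not tested. The 5 genes that passed between HpC and pC also passed without HpC1 and HpC2.

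The comparison of HpC with H sets the derived cholangiocytes beside hepatocytes of the same genotype, and that of pC with H sets ordinary cholangiocytes beside them. In HpC 15 of the 25 genes were higher than in H, 5 were lower and 5 did not pass, and 59.9% of all tested genes passed (30.7% higher, 29.2% lower). In pC 14 were higher, 3 were lower and 8 did not pass, and 59.6% of all tested genes passed (31.1% higher, 28.6% lower). The median log2 fold change was 1.16 in HpC against H and 0.82 in pC against H, beside 0.08 and 0.11 over all tested genes. Dkk3, Fzd2, Sfrp5, Wnt7a, Wnt7b, Wnt10a and Wnt11 were listed at 0 in all H libraries, so no fold is given for them. Without these 7 the medians were 0.51 and 0.67, with 9 higher and 5 lower in HpC and 9 higher and 3 lower in pC. Fzd3, Fzd5, Fzd6, Fzd9, Ror1, Rspo1, Wnt4 and Wnt9a also reached 1 deposited TPM in no H library. They and the 7 entered the test through HpC or pC alone, where they are high. The counts and medians include such members and so are not read as a result about the set. The 2 comparisons share the H libraries. The summed markers of endothelium, of stellate cells and fibroblasts, of mesothelium and of leukocytes were also higher in every HpC and pC library than in every H library, and their part in these results was not tested. The sort of HpC and pC took the nonparenchymal fraction after further enzyme digestion, while that of H followed perfusion directly. Cell type and preparation thus cannot be told apart. The pC mice also lacked Cre, so in pC against H the genotype cannot be told apart from these either. On TPM as deposited the median of all tested genes moved to 0.87 in HpC against H and 1.20 in pC against H, the share of higher calls among all genes was 83.3% and 88.2% (51.2% and 52.1% after rescaling), and 18 members were higher and 1 lower in HpC and 20 higher in pC.

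**Figure D4:**
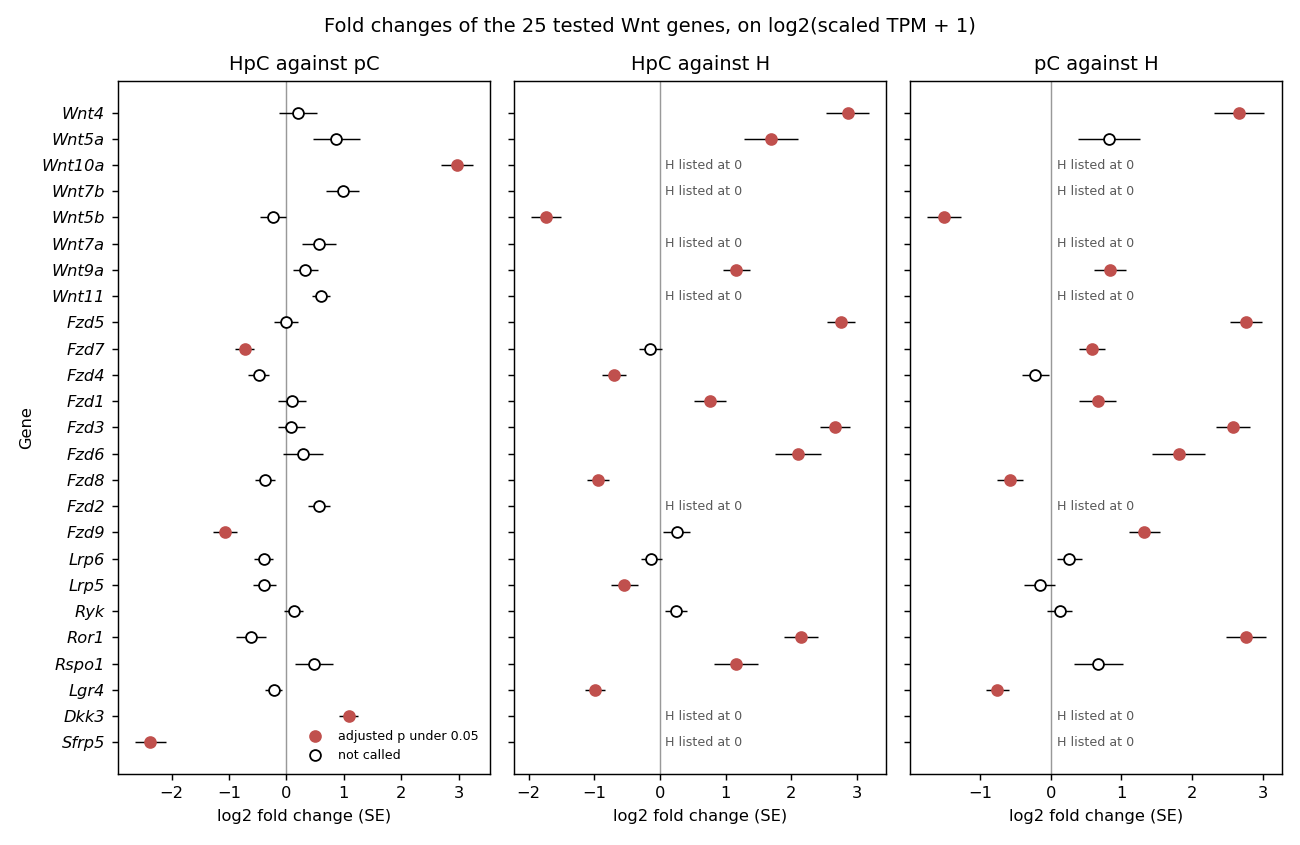
Log2 fold changes of the 25 tested genes with their standard errors (horizontal axes, log2(scaled TPM + 1) scale) in HpC against pC, HpC against H and pC against H. Filled points passed at a limma adjusted p under 0.05. Wnt10a, at 2.97, is the largest in the left panel, no fold is drawn where H is listed at 0, and Wnt5b, at -1.74 and -1.51, is the lowest in the other panels.

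Among ligands, all 8 tested genes passed in HpC against H, 7 higher and Wnt5b lower, and 5 passed in pC against H, Wnt4, Wnt7a, Wnt7b and Wnt9a higher and Wnt5b lower. Of all tested genes 59.9% passed in HpC and 59.6% in pC. Only Wnt5a and Wnt5b reached 1 deposited TPM in an H library. The other tested ligands entered through HpC or pC alone, where they are high, so these counts are not read as a result about ligands. Wnt4 stood at 0.338, 0.440 and 0.181 scaled TPM in H1 to H3, far below both cholangiocyte groups, with log2 fold changes of 2.85 ± 0.33 (SE) in HpC (limma adjusted p = 3.66e-05) and 2.66 ± 0.35 in pC (adjusted p = 0.000102). Wnt5b stood at 0.302, 0.456, 0.420 and 0.370 in HpC1 to HpC4, 0.670, 0.698 and 0.501 in pC1 to pC3 and 4.24, 5.14 and 2.08 in H1 to H3. All hepatocyte libraries were above all cholangiocyte libraries, with log2 fold changes of -1.74 ± 0.23 in HpC (limma adjusted p = 8.28e-05) and -1.51 ± 0.24 in pC (adjusted p = 0.000360). On TPM as deposited the pC value of Wnt5b was -0.58 and did not pass (limma adjusted p = 0.0871, the highest of its alternatives, which began at 4.52e-05). Wnt5a was at 0.253, 2.05 and 2.75 in H1 to H3, and passed in HpC (1.69 ± 0.41, limma adjusted p = 0.00526) but not in pC (0.82 ± 0.44, adjusted p = 0.136). With protein-coding transcripts alone Wnt5a passed in pC too (0.92 ± 0.23, limma adjusted p = 0.00504), as it did on TPM as deposited (1.79, adjusted p = 0.00749). Wnt9a was at 0.105, 0.0799 and 0.146 in H1 to H3 and passed in both, at 1.16 ± 0.21 in HpC (limma adjusted p = 0.000847) and 0.83 ± 0.23 in pC (adjusted p = 0.00930), but in neither after quantile normalization (0.33 and 0.01). Wnt7b passed in both comparisons (limma adjusted p = 6.94e-06 in HpC and 0.000176 in pC), Wnt10a and Wnt11 in HpC (2.82e-06 and 0.00157) but not in pC (0.165 and 0.320). With a pseudocount of 0.1 Wnt10a passed in pC as well (limma adjusted p = 0.00958), and after quantile normalization Wnt11 did not pass in HpC (adjusted p = 0.163). Of Wnt5a, Wnt10a and Wnt11, Wnt10a alone also passed in HpC against pC. Wnt7a passed in HpC (limma adjusted p = 0.00183) and in pC (adjusted p = 0.0353), where the call was lost without pC1, pC3 or any H library, with no filter and after quantile normalization (0.36; range 0.00195 to 0.366).

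Among Frizzled receptors, Fzd3, Fzd5 and Fzd6 separated both cholangiocyte groups from hepatocytes under every alternative. Fzd5 was higher by 2.75 ± 0.21 (SE) in HpC (limma adjusted p = 2.09e-06) and 2.77 ± 0.23 in pC (adjusted p = 3.30e-06). Fzd3, a receptor of axon guidance and planar polarity, stood at 4.23, 5.20, 7.94 and 5.76 scaled TPM across HpC1 to HpC4, 6.02, 3.57 and 6.65 in pC1 to pC3 and 0.0206, 0.126 and 0 in H1 to H3. It was near 0 in hepatocytes alone, with fold changes of 2.67 ± 0.23 (limma adjusted p = 4.44e-06) in HpC and 2.58 ± 0.25 (adjusted p = 9.39e-06) in pC. Fzd6, another receptor of planar polarity, stood at 4.02, 13.1, 3.67 and 4.05 in HpC1 to HpC4, 4.27, 4.87 and 3.66 in pC1 to pC3 and 0.360, 0.707 and 0.441 in H1 to H3. HpC2 was its highest library, and the fold changes were 2.09 ± 0.35 (limma adjusted p = 0.000494) in HpC and 1.81 ± 0.38 (adjusted p = 0.00200) in pC. Fzd2 passed in both comparisons (limma adjusted p = 8.45e-05 in HpC and 0.00365 in pC), though not in pC after quantile normalization (adjusted p = 0.189, the highest of its alternatives, which began at 6.34e-05).

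Fzd8 and Fzd4 went the other way. Fzd8, on chromosome 18, stood at 2.05, 1.5, 2.29 and 2.48 scaled TPM across HpC1 to HpC4, 2.65, 3.24 and 2.98 in pC1 to pC3 and 5.14, 5.71 and 3.95 in H1 to H3. It was lower, with log2 fold changes of -0.95 ± 0.17 (SE) in HpC (limma adjusted p = 0.000867) and -0.58 ± 0.18 in pC (adjusted p = 0.0210), neither of which held on TPM as deposited (-0.061 in HpC, limma adjusted p = 0.870, and 0.64 in pC, adjusted p = 0.0966). The pC call was also lost without pC1, H1 or H2. Fzd4 was at 5.72, 9.80 and 7.78 in H1 to H3, above all HpC libraries, and was lower in HpC, at -0.70 ± 0.18 (limma adjusted p = 0.00672), a value that became 0.26 on TPM as deposited. In pC the Fzd4 difference from H was -0.22 ± 0.19 (limma adjusted p = 0.341), and 1.12 on TPM as deposited (adjusted p = 0.00951). Fzd7 was higher in pC than in H by 0.58 ± 0.18 (limma adjusted p = 0.0199), a call that ended without pC3, H1 or H3, and Fzd9 was higher by 1.32 ± 0.22 (adjusted p = 0.000451). In HpC neither passed against H (limma adjusted p = 0.490 and 0.304), apart from Fzd7 on TPM as deposited (0.78, adjusted p = 0.0483).

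Fzd1, a receptor for beta-catenin ligands, stood at 4.23, 6.37, 7.28 and 6.17 scaled TPM across HpC1 to HpC4, 7.83, 4.37 and 4.63 in pC1 to pC3 and 2.15, 3.34 and 3.90 in H1 to H3. Hepatocytes were lowest without overlap, by a small margin. It passed in HpC (0.77 ± 0.24 SE, limma adjusted p = 0.0196), though not without HpC3 or H1 or after quantile normalization (0.53, adjusted p = 0.0965), and in pC (0.66 ± 0.26, adjusted p = 0.0482), where leaving out any 1 of HpC2, HpC3, HpC4, pC1, pC3, H1 and H2 ended the call, as did quantile normalization (0.42, adjusted p = 0.212), no filter and a fit of only the 2 groups. Without pC1 the pC value of Fzd1 was 0.44 (limma adjusted p = 0.181, in a range of 0.00131 to 0.212).

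Of the other receptors, Ror1 was higher than in H by 2.14 ± 0.26 (SE) in HpC (limma adjusted p = 5.21e-05) and 2.76 ± 0.28 in pC (adjusted p = 1.42e-05), under every alternative. Lrp6 and Ryk did not pass in either comparison. On TPM as deposited both did, Lrp6 at 0.96 in HpC and 1.78 in pC (limma adjusted p = 0.0208 and 0.000578) and Ryk at 1.25 and 1.52 (adjusted p = 0.00314 and 0.00104), and Lrp6 also passed in pC after quantile normalization (0.81, adjusted p = 0.00385). Lrp5 was at 30.3, 30.9 and 36.3 scaled TPM in H1 to H3 and was lower in HpC, at -0.54 ± 0.21 (limma adjusted p = 0.0425), with HpC2 inside the H range. This call ended without any single library other than HpC2, and the value became 0.55 on TPM as deposited and -0.13 after quantile normalization (adjusted p = 0.184 and 0.599). In pC Lrp5 passed against H on TPM as deposited alone (1.35, adjusted p = 0.00606). Lgr4 was at 19.5, 21.3 and 22.9 in H1 to H3, above every cholangiocyte library. It was lower, with log2 fold changes of -0.98 ± 0.15 in HpC (limma adjusted p = 0.000280) and -0.76 ± 0.16 in pC (adjusted p = 0.00241), which became 0.08 and 0.71 on TPM as deposited. Rspo1 was higher in HpC than in H (1.16 ± 0.33, limma adjusted p = 0.0118), but not after quantile normalization (0.44, adjusted p = 0.266) or without HpC1 and HpC2 (adjusted p = 0.0563), in a range of 0.00223 to 0.266. The protein-coding transcripts of Rspo1 stood at 1.43, 1.16, 0.553 and 0.375 in HpC1 to HpC4. With these alone, or with the filter of 2 TPM, Rspo1 was too low to be tested. Dkk3 passed in HpC (limma adjusted p = 1.56e-06) and in pC (adjusted p = 0.000259), and Sfrp5 in pC alone (3.80e-05, against 0.599 in HpC).

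The other genes of the pathway were followed through 5 lists of 75 genes, of which 60 were tested. In HpC against pC 3 were higher (Lgr6, Gpc3 and Wls), Trabd2b was lower and 56 did not pass, a share called that is near the 4.54% of all tested genes, with a median log2 fold change of -0.03 beside -0.01 over all tested genes. None of the 16 tested genes of the cytoplasmic beta-catenin arm, the 13 of the nuclear arm or the 13 of the planar polarity arm passed (limma; 2, 4 and 1 genes in that order had an unadjusted p under 0.05). Of the 4 genes called, Lgr6 and Gpc3 belong to the 10 tested receptor complex modulators and Wls and Trabd2b to the 8 tested genes of ligand secretion and removal, numbers too small to set one list apart from another.

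**Figure D5:**
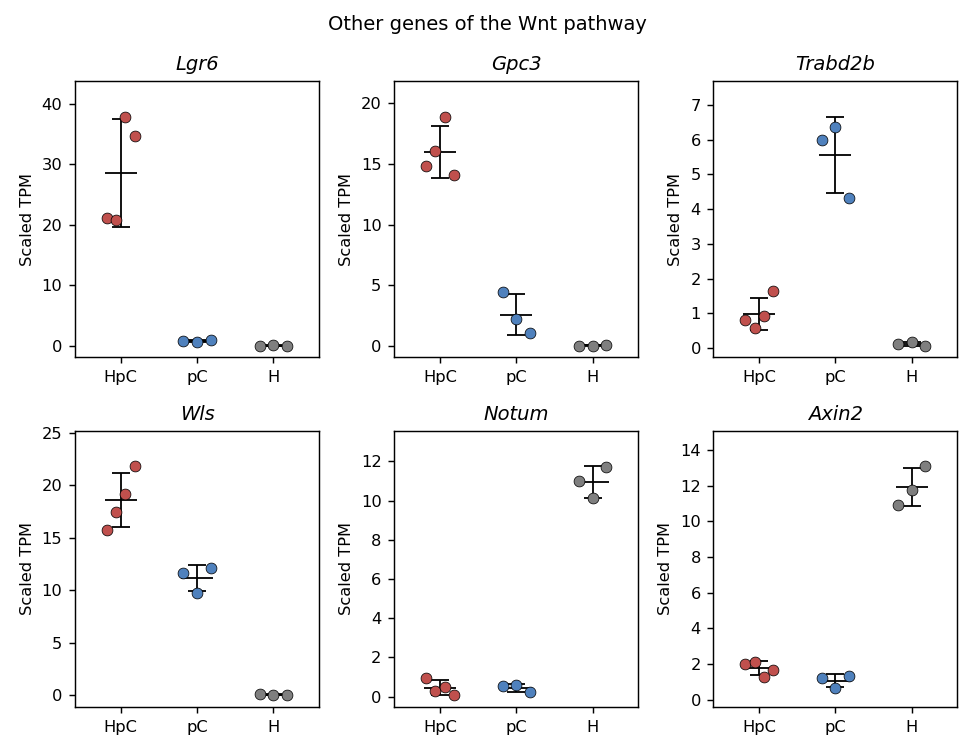
Scaled TPM (vertical axes, linear, each with its own range) of 6 further Wnt pathway genes by group. Points are libraries and bars the mean and SD. Lgr6 (20.8 to 37.9) and Gpc3 (14.1 to 18.9) are high in HpC, Trabd2b is high in pC (4.33 to 6.38), and Notum and Axin2 are high in H (10.1 to 13.1).

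Lgr6, the third R-spondin receptor of the LGR family and a marker of skin stem cells, stood at 21, 20.8, 37.9 and 34.6 scaled TPM across HpC1 to HpC4, against 0.772, 0.572 and 0.90 in pC1 to pC3 and 0.0312, 0.0476 and 0 in H1 to H3. The HpC libraries were all high and the pC libraries all low. The HpC mean of 28.6 ± 8.95 (SD, n = 4) was 38.2 times the pC mean of 0.748 ± 0.165 (n = 3), and the log2 fold change was 4.03 ± 0.23 (SE; limma adjusted p = 2.44e-05). In HpC, Lgr6 thus exceeded Lgr4 (8.66 to 12.2) in every library, whereas in pC Lgr4 (11.4 to 13.1) was the higher one. Gpc3, a glypican that binds Wnt at the cell surface, stood at 14.9, 16.0, 18.9 and 14.1 in HpC1 to HpC4, against 4.41, 2.17 and 1.06 in pC1 to pC3 and 0, 0 and 0.0678 in H1 to H3. The groups did not overlap, and the fold change of 2.36 ± 0.28 passed (limma adjusted p = 0.00151). Both genes passed under all 20 alternatives.

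Trabd2b, a membrane protease that cleaves Wnt ligands, stood at 0.812, 0.569, 0.928 and 1.64 scaled TPM across HpC1 to HpC4, against 6.01, 6.38 and 4.33 in pC1 to pC3 and 0.115, 0.175 and 0.0711 in H1 to H3. The HpC libraries lay between those of H and pC without overlap, with a log2 fold change against pC of -1.74 ± 0.21 (SE; limma adjusted p = 0.00158). Wls, which carries Wnt ligands to the cell surface, stood at 15.8, 17.5, 19.2 and 21.8 in HpC1 to HpC4, against 11.7, 9.76 and 12.1 in pC1 to pC3 and 0.105, 0.0402 and 0 in H1 to H3. It was high in both cholangiocyte groups and near 0 in hepatocytes. Its difference between HpC and pC, 0.68 ± 0.15, passed (limma adjusted p = 0.0326), but the call was lost without HpC3, HpC4, any pC library or any H library (range 0.00363 to 0.628). It was also lost on TPM as deposited (0.29, limma adjusted p = 0.628), with a pseudocount of 0.1 (adjusted p = 0.184) and with only the 2 groups fitted (adjusted p = 0.0853). Against H Wls was higher by 4.21 ± 0.15 in HpC (limma adjusted p = 4.10e-08) and 3.54 ± 0.16 in pC (adjusted p = 1.13e-07). Porcn, the enzyme that lipidates Wnt ligands, was at 0.867 to 1.70 in HpC, 1.42 to 2.33 in pC and 1.11 to 1.36 in H and passed in no comparison. Under single alternatives it was lower in HpC than in H (-0.56 after quantile normalization, limma adjusted p = 0.0234) and higher in pC than in H (1.27 on TPM as deposited, adjusted p = 0.00323, and 0.47 with library weights, adjusted p = 0.0201).

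Against H, 28 of the 60 further genes were higher, 11 lower and 21 not called in HpC, and 31 were higher, 12 lower and 17 not called in pC, with medians of 0.41 and 0.52 beside 0.08 and 0.11 over all tested genes. Among all tested genes 59.9% passed in HpC (30.7% higher, 29.2% lower) and 59.6% in pC (31.1% higher, 28.6% lower), so the number called in HpC is near that share, and the counts of single lists below are to be read against it. Notum, which removes the lipid from Wnt ligands and is itself a beta-catenin target in pericentral hepatocytes, stood at 0.959, 0.277, 0.512 and 0.0565 scaled TPM across HpC1 to HpC4, 0.537, 0.599 and 0.223 in pC1 to pC3 and 11, 10.1 and 11.7 in H1 to H3. Axin2, a feedback inhibitor induced by beta-catenin, stood at 1.98, 2.13, 1.26 and 1.64 in HpC1 to HpC4, 1.19, 0.666 and 1.34 in pC1 to pC3 and 10.9, 11.7 and 13.1 in H1 to H3. Both were lower in the cholangiocyte groups without overlap, Notum at -3.08 ± 0.22 (SE; limma adjusted p = 1.20e-06) in HpC and -3.05 ± 0.23 (adjusted p = 2.03e-06) in pC, and Axin2 at -2.24 ± 0.18 (adjusted p = 2.66e-06) in HpC and -2.66 ± 0.19 (adjusted p = 1.37e-06) in pC. Between HpC and pC neither passed (limma adjusted p = 0.959 for Notum and 0.258 for Axin2). The beta-catenin gene Ctnnb1 was at 305 to 407 in HpC, 486 to 515 in pC and 164, 210 and 207 in H1 to H3. It was higher than in H in both (0.89 ± 0.16, limma adjusted p = 0.000708 in HpC, and 1.37 ± 0.17, adjusted p = 6.20e-05 in pC), and the difference of -0.47 ± 0.16 between HpC and pC did not pass (adjusted p = 0.143) except with library weights (-0.51, adjusted p = 0.0250). The receptor ligase Znrf3 was at 9.06 to 13.7 in HpC, 12.5 to 14.1 in pC and 5.77 to 7.64 in H, higher in both than in H (0.83 ± 0.17, limma adjusted p = 0.00190, and 0.97 ± 0.18, adjusted p = 0.00110). Its relative Rnf43, at 9.06 to 19.4 in HpC, 13.8 to 18.7 in pC and 15.6 to 21.5 in H, passed in none, but was lower in HpC than in H with protein-coding transcripts alone (-0.42, limma adjusted p = 0.0439) and higher in pC than in H on TPM as deposited (1.31, adjusted p = 0.0224).

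The nuclear arm of the pathway held 6 higher and 3 lower genes of 13 in HpC against H, and 8 higher and 3 lower in pC against H. Tcf7l1, a TCF factor that often represses, stood at 16.3 to 28.1 scaled TPM in HpC, 27.9 to 35.0 in pC and 1.19 to 2.57 in H (3.21 ± 0.23 SE, limma adjusted p = 1.31e-06 in HpC, and 3.62 ± 0.25, adjusted p = 9.65e-07 in pC). Bcl9, a beta-catenin coactivator, was at 28.5 to 43.7 in HpC, 34.8 to 46.4 in pC and 5.58 to 11.3 in H. The corepressor Tle3 was at 69.1 to 135 in HpC, 131 to 162 in pC and 18.5 to 29.5 in H. Both were higher in the cholangiocyte groups, whereas Aes, a short relative of the TLE proteins, was lower, at 48.0 to 108 in HpC, 68.5 to 97.3 in pC and 239 to 262 in H. In pC the call of Aes was lost on TPM as deposited (-0.045, limma adjusted p = 0.889) and after quantile normalization (-0.61, adjusted p = 0.0905).

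In the planar polarity arm 8 of 13 genes were higher in HpC than in H and 7 in pC, and the others did not pass. Vangl2, a core polarity protein, stood at 3.72 to 10.1 scaled TPM in HpC, 4.52 to 5.97 in pC and 0.0682 to 0.209 in H (2.53 ± 0.26 SE, limma adjusted p = 1.74e-05 in HpC, and 2.48 ± 0.28, adjusted p = 3.38e-05 in pC). Its relative Vangl1 was at 18.7 to 36.8 in HpC, 17.6 to 28.8 in pC and 4.93 to 11.3 in H. The polarity cadherin Celsr2 stood at 5.23 to 25.3 in HpC, 7.91 to 9.86 in pC and 0.214 to 0.598 in H, HpC2 being the library at 25.3. Nfatc1, a calcium-regulated transcription factor, was at 11.7 to 24.6 in HpC, 15.5 to 25.6 in pC and 3.25 to 4.19 in H. All 4 were higher in both cholangiocyte groups than in H.

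In the cytoplasmic arm 6 of 16 genes were higher and 2 lower in HpC than in H, and 8 higher and 2 lower in pC, no larger a share called in HpC than the 59.9% of all tested genes and about the 59.6% in pC. The tankyrases Tnks and Tnks2, which mark axin for destruction, were higher in both, Tnks at 9.61 to 12.0 scaled TPM in HpC, 10.9 to 12.2 in pC and 5.36 to 6.55 in H. Dishevelled 1 (Dvl1), which relays the Frizzled signal, was lower in both, at 23.4 to 31.1 in HpC, 19.9 to 24.0 in pC and 40.8 to 50.7 in H, and its differences became 0.42 in HpC and 0.55 in pC on TPM as deposited, where neither passed (limma adjusted p = 0.260 and 0.161). The HpC value of Dvl1 did not pass after quantile normalization either (-0.16, adjusted p = 0.369). Among the receptor complex modulators 6 of 10 were higher and 1 lower in HpC, and 6 higher and 2 lower in pC. The polarity receptor Ptk7 was higher in both, at 4.52 to 13.4 in HpC, 8.75 to 9.18 in pC and 0.956 to 1.17 in H. The proteoglycan Sdc1 was lower in both, at 30.4 to 205 in HpC, 19.2 to 28.6 in pC and 198 to 212 in H, HpC2 being the library at 205, and in HpC it did not pass on TPM as deposited (-0.82, limma adjusted p = 0.219) or after quantile normalization (-1.12, adjusted p = 0.102). In ligand secretion and removal 2 of 8 genes were higher and 5 lower in HpC, and the same numbers in pC. Among the lower ones Vps26a, Vps29 and Vps35 became 0.52, 0.43 and 0.66 in HpC on TPM as deposited, and 0.96, 0.65 and 0.89 in pC. There Vps26a and Vps35 passed as higher in pC than in H (limma adjusted p = 0.0177 and 0.0247). Tmed5, a cargo receptor of the secretory route, was lower in both, at 30.7 to 55.5 in HpC, 34.2 to 35.9 in pC and 79.3 to 89.8 in H, and became 0.03 in HpC and 0.31 in pC on TPM as deposited.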

How the data were processed

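A low-input kit was used to make RNA-seq libraries from sorted cells, read as single-end reads of 50 bases, per the labels' protocols. The authors deposited 1 table per library of TPM for 85276 Ensembl transcripts, and the submitters' processing notes name kallisto, DESeq and the mm10 build, without versions or roles. Transcripts were joined to GENCODE M21 (81927 matched, 3349 left out) and summed to genes. TPM holds no depth, so read numbers are unknown and no interval for counting error can be given. Short reads can be split between similar genes and transcripts.

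A gene was tested if 3 or more libraries held it at 1 TPM or more, and the rest of the 49 genes are given by values alone. TPM was divided by a library factor (0.668 in HpC1 to 1.61 in HpC4, 1.53 to 1.59 in pC, 0.499 to 0.585 in H) from an unweighted trimmed mean of log ratios, which left out 30% of ratios and 5% of levels at each end. Fold changes are differences of log2(scaled TPM + 1), which understates changes of low genes. Groups were compared with limma 3.58.1 (R 4.3.3) in 1 fit of all 10 libraries, with Benjamini-Hochberg adjustment over 14765 genes at 5%. The steps were tested on simulated data. Tables and figures were made with pandas 2.3.3 and matplotlib 3.10.9 under Python 3.11.15. Promoters are from a RefSeq table on GRCm38.p6, which held entries for 32 of the 49 genes.

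The members, lists and markers were chosen with earlier results of these data known. Values per library are given for members that pass in a comparison or average at least 10 scaled TPM in a group, and for some others. The further pathway genes named are those passing with the largest fold change, at most 4 per list and comparison, plus Ctnnb1, Axin2, Znrf3, Rnf43, Wls and Porcn. A few others are named only because their direction changed under an alternative. Alternatives changed the scaling, the pseudocount (0.1), the filter (none, or 2 TPM), the transcripts summed, the replicate block, the groups in the fit, library weights and the libraries included. Protein sequences were not used here.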

Additional observations from a re-analysis of the deposited data

Results flagged for a closer look

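In the 4 HpC libraries the gap of the highest or lowest library to the next was compared with the group's range. For normally distributed values chance alone meets this rule in about 1 group in 20. It was applied to scaled TPM without logs, some near 0, so no excess over chance is read from the number of genes flagged. HpC2 was the one far above the others for Wnt4 (18.1 scaled TPM, against 5.33 to 7.37), Wnt16 (3.56, against 0.0278 to 0.142), Fzd6 (13.1, against 3.67 to 4.05) and Fzd10 (2.97, against 0.137 to 0.355). It was likewise high for Lrp5 (33.1, against 18.2 to 20.0), Sfrp1 (4.22, against 0.178 to 0.554) and Sfrp2 (1.68, against 0.137 to 0.381), and low for Lrp6 (29.4, against 34.9 to 36.1). The protein-coding transcripts of Sfrp2 were at 0.220 in HpC2, so most of its 1.68 came from other transcripts. Among further pathway genes HpC2 was high for Sdc1 (205, against 30.4 to 37.1) and Celsr2 (25.3, against 5.23 to 5.90). HpC1 was low for Rnf43 (9.06, against 18.4 to 19.4). The stratified squamous markers of HpC2 summed to 38191 scaled TPM and the pancreatic acinar markers of HpC1 to 171143, and their part in these values was not tested. Groups of 3 libraries were not examined in this way.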

How the results depend on the processing

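Over the Wnt gene differences that passed, and those of at least 0.5 in HpC against pC, 868 values under the alternatives kept direction and side of the threshold, 69 no longer passed, 6 newly passed and 5 reversed. Over the called differences of the further pathway genes named under the rule given for the processing, 973 kept both, 22 no longer passed and 5 reversed. This tally leaves out the other called genes, among which more differences reversed. Of all uncalled Wnt genes, 4 of 20 in HpC against pC, 3 of 5 in HpC against H and 7 of 8 in pC against H passed under at least 1 alternative, and of the further genes 5 of 56, 20 of 21 and 17 of 17 in that order. The 5 Wnt genes called in HpC against pC became 3 on TPM as deposited, 3 with the replicate block, 3 with only the 2 groups fitted and 9 with array weights, and 3 to 6 when 1 library was left out. Leaving out 1 library gave 18 to 20 called in HpC against H and 13 to 17 in pC against H. The 4 further genes called in HpC against pC became 8 with array weights and 3 to 5 without 1 library. No pairing by replicate number was seen, since the deviations of 9 same-numbered pairs correlated at -0.05 to 0.08 and those of 24 other pairs at -0.18 to 0.17. Correlations of so few libraries cannot exclude a pairing. With the block Fzd7, Fzd9 and Wls were not called in HpC against pC, Fzd1 and Lrp5 in HpC against H and Fzd1 in pC against H. Of the further genes 32 rather than 39 were then called in HpC against H, and 38 rather than 43 in pC against H.

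On TPM as deposited the reversed values were 0.26 for Fzd4, 0.085 for Lgr4 and 0.55 for Lrp5 in HpC against H and 0.64 for Fzd8 and 0.71 for Lgr4 in pC against H. They were also, for Dvl1, 0.42 in HpC and 0.55 in pC against H and, for Tmed5, 0.033 in HpC and 0.31 in pC against H. Among called genes outside the naming rule, Vps26a, Vps29 and Vps35 reversed in both comparisons with H. So did Tle1 in HpC against H (0.38) and Gpc4, Tcf7 and Ctnnbip1 in pC against H (0.66, 0.13 and 0.010). After quantile normalization Trabd2b reversed in HpC against H (-0.026), as did Prickle1, outside the naming rule (-0.13). The cause was not tested. Read depth, and so detection of low ligands, cannot be judged from TPM.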
